A study of Mus musculus with 24 samples.

Results

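The BET proteins and the factors that release paused RNA polymerase II were followed in SLAMseq and QuantSeq counts of 3T3-L1 cells, a mouse pre-adipocyte line that turns into adipocytes under hormonal induction. The genes were *Brd2* and *Brd3* for the BET proteins, *Cdk9*, *Ccnt1* and *Ccnt2* for P-TEFb, *Hexim1* for its inhibitor, and *Ell2* and *Aff4* for the super elongation complex. These 8 members were selected by gene symbol, out of 26995 symbols in the count tables, and each was represented by the 3′UTR entry that held most total reads on average in the 24 libraries. The entry of *Ccnt1* is listed through a predicted noncoding transcript of RefSeq, and the entries of *Brd2* are described below. The set was chosen after it was seen that labelled *Brd2* reads changed over the days differently in ML-792 and in DMSO. Labelled *Brd2* values of both arms are therefore described below without p-values. Counts of members called in labelled reads leave *Brd2* out. Only the closing section on processing counts it, in the DMSO time course.

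All libraries came from 1 cell line, kept as pre-adipocytes in bovine calf serum. Differentiation was induced with a medium holding dexamethasone, IBMX (3-isobutyl-1-methylxanthine), insulin and fetal bovine serum. At day 3 a medium with insulin and fetal bovine serum, without dexamethasone and IBMX, took its place. The day contrasts therefore include these changes of medium. The vehicle group received DMSO and the treated group 0.5 μM ML-792, which inhibits the SUMO-activating enzyme SAE and so the attachment of SUMO to proteins. Each was collected at days −2, 1, 3 and 7 in 3 replicates named A, B and C. The RNA of every library, controls included, was labelled with 100 μM 4-thiouridine for 45 min. A read with a T to C conversion was taken to mark RNA made during the pulse. None of these libraries went without 4-thiouridine, so reads with a conversion of other origin were not measured.

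BET proteins hold a pair of bromodomains that bind acetylated histones, and they help to bring P-TEFb to promoters and enhancers. P-TEFb, the kinase CDK9 with cyclin T1 or T2, phosphorylates the paused polymerase, the pausing factor NELF and DSIF, and elongation then proceeds. HEXIM1 together with the 7SK RNA holds P-TEFb in an inactive state, whereas the super elongation complex, built on AFF4 or AFF1 with an ELL protein, carries active P-TEFb. During adipogenesis this machinery is known for transcribing newly activated genes of the adipocyte.

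Library depth was 13554718 to 27013352 total reads, of which 115709 to 820046 were labelled. The labelled share of a library was 2.68 to 3.68% at day −2 and 0.802 to 1.36% on the later days. Of the adipocyte markers *Adipoq*, *Fabp4*, *Plin1*, *Cidec* and *Lpl*, the summed normalised count rose from 21879 to 23311 in DMSO at day −2 to 610776 to 697432 at day 7, and it was 813270 to 883091 in ML-792 at day 7. The summed pre-adipocyte markers (*Dlk1*, *Pdgfra*, *Thy1* and *Cd34*) went from 42585 to 75757 in DMSO at day −2 to 4019 to 4536 at day 7. In ML-792 at day 7 this sum was 2638 to 3621. There *Dlk1* had the lower mean (1483 against 3109 in DMSO). *Pdgfra* (975 against 459) and *Thy1* (741 against 636) had the higher. In bulk libraries a change in the number of cells of a type and a change in RNA per cell cannot be told apart. Of markers of other cells, the 4 macrophage genes (*Ptprc*, *Adgre1*, *Cd68* and *Csf1r*) summed to 25.5 to 146 normalised reads per library, the 3 endothelial genes to at most 19.6 and the 3 epithelial genes to at most 15.2. *Ptprc* and *Epcam* alone of these were at 0 reads in all 24 libraries.

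*Brd2* had 19 entries in the tables, and most of its reads lay in 3 of them that do not overlap. The entry picked by the rule was exon 9 of 13 of the protein-coding transcript, at chr17:34113932-34114177 on the minus strand of GRCm38.p6 (mm10), with a mean of 3986 total reads. It is listed among 3′UTRs through a noncoding *Brd2* transcript of RefSeq that shares it. It is called the upstream exon here. The next exon, exon 10 at chr17:34113570-34113832, had a mean of 1769 total reads and is called the A-rich exon. The annotated 3′UTR in the last exon, chr17:34112019-34112574, had 3706 and is called the terminal entry. Both inner exons are coding in the protein-coding transcript, and neither is at the annotated 3′ end.

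The sequences of both inner exons are shown because the entry behind the labelled *Brd2* pattern is one of them, and because 3′ libraries are primed with oligo-dT on stretches of A. They are given in the direction of the transcript, read from GRCm38.p6, with the 30-base window that holds the most A in capitals.
*Brd2* upstream exon: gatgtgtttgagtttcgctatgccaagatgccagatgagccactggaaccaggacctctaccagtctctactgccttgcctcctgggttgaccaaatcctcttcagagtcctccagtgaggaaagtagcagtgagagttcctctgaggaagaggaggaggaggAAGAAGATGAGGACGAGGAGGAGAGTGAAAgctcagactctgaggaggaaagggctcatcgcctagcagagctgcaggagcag
*Brd2* A-rich exon: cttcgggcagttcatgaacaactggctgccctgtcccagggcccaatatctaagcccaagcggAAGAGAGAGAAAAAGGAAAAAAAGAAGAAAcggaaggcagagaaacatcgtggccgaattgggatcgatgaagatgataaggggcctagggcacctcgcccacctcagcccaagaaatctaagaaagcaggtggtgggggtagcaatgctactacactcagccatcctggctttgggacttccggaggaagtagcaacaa

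The window of the A-rich exon held 22 A in 30 bases, the most of any such window in the 4487 bases of the spliced transcript, and the most outside this exon was 17. It began 63 bases into the exon and held the single run of 7 A in the transcript, 1302 bases before its 3′ end. The richest window of the upstream exon held 14 A. The terminal entry held 1 AATAAA, the canonical polyadenylation signal, beginning 32 bases before its end. T made up 19.1% of the upstream exon, 15.2% of the A-rich exon and 30.0% of the terminal entry, and a conversion can be seen only at a T. Whether oligo-dT primed on the A-rich stretch was not tested.

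Reads divided between the *Brd2* entries differently in the libraries of replicate B. In total reads the terminal entry took 15.6 to 30.0% of the reads of the 3 entries in the 8 B libraries, against 36.2 to 48.4% in the 8 A libraries and 42.8 to 48.2% in the 8 C libraries. The B libraries lay below all A and C libraries, in DMSO and in ML-792 alike. The A-rich exon took 23.4 to 33.4% in B, above the 11.3 to 17.1% of A and the 10.6 to 20.5% of C. In labelled reads the share of the terminal entry was 40.6 to 52.8% in B, 49.0 to 65.7% in A and 53.6 to 72.1% in C, and there B overlapped with A.

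**Figure D1:**
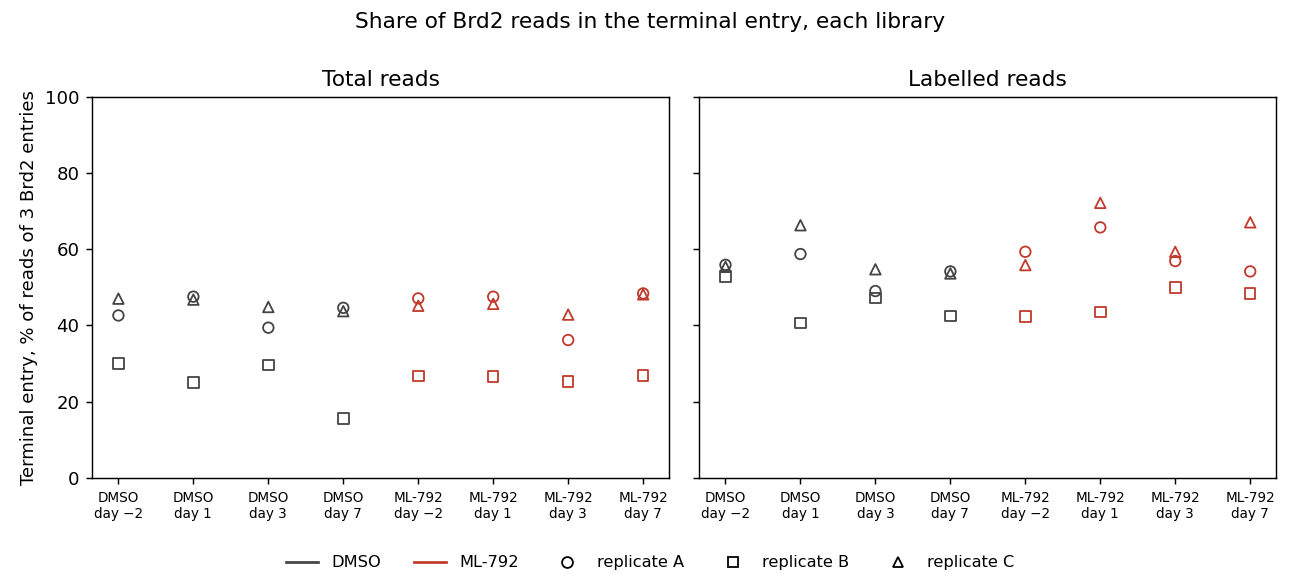
Share of the reads of 3 non-overlapping *Brd2* entries that fell in the terminal entry (vertical axis, percent) in each of the 24 libraries, grouped by treatment and day (horizontal axis), for total and labelled reads. Squares mark replicate B, whose 8 libraries lie at 15.6 to 30.0% in total reads, below every circle (A) and triangle (C).

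The first comparison asked how total RNA of the members changed as DMSO cells differentiated. Each later day was compared with day −2 in the 12 DMSO libraries by the quasi-likelihood test of edgeR. Calls were made below 0.01 after Benjamini-Hochberg adjustment over the 26563 entries tested. All 8 members were tested. *Hexim1* and *Ell2* rose, *Brd3* fell at day 7, and the other 5 were not called, which makes 3 of 8 members against 42.5% of all entries called on any of the days.

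*Hexim1* encodes the inhibitor of P-TEFb that acts with 7SK RNA. Normalised total counts (reads per mean effective library) in replicates A, B and C were 738, 616 and 708 at day −2 and 1339, 1347 and 1127 at day 1. They were 1951, 1474 and 1688 at day 3 and 1960.0, 1594 and 1558 at day 7. Every later library lay above every library of day −2. Day 1 differed by a log2 fold change of 0.89 ± 0.17 (SE, adjusted p = 0.0013), a call lost without replicate A (0.056) or C (0.022). Days 3 and 7 both differed by 1.31 ± 0.17 (adjusted p = 1.6e-05 and 1.4e-05), or 2.48-fold.

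*Ell2* encodes an elongation factor of the super elongation complex that keeps polymerase moving. Its normalised total counts were 206, 354 and 230.0 at day −2, 275, 362 and 245 at day 1, 1035, 1146 and 533 at day 3, and 1007, 1388 and 941 at day 7. Day 1 overlapped with day −2 (log2 fold change 0.16 ± 0.29, adjusted p = 0.75), and days 3 and 7 lay above it. The difference was 1.78 ± 0.29 on day 3 (adjusted p = 0.00014, or 0.017 without replicate A) and 2.08 ± 0.29 on day 7 (adjusted p = 3.0e-05), the latter 4.22-fold. On days 1, 3 and 7, 5.44%, 13.4% and 15.5% of all entries were called higher, against 1, 2 and 2 of the 8 members.

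*Brd3*, the other BET gene of the set, had 2249.9, 2229 and 2409 normalised total reads at day −2, 1912, 1948 and 2117 at day 3 and 1434, 1629 and 1520.2 at day 7. The libraries of day 7 lay below those of day −2, and the log2 fold change was −0.59 ± 0.14 (adjusted p = 0.0034), a call lost without replicate A or C and with no filter. At day 7, 17.1% of all entries were called lower and 1 of the 8 members. *Brd3* was not called at day 1 (0.04 ± 0.14, adjusted p = 0.87) or day 3 (−0.20 ± 0.14, adjusted p = 0.27).

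The kinase and cyclins of P-TEFb were not called in total reads. *Cdk9*, the kinase, had 253, 262 and 204 normalised total reads at day −2 and 307, 414 and 314 at day 3, groups that did not overlap, with a log2 fold change of 0.52 ± 0.23 (adjusted p = 0.081). At day 7 it had 227, 149 and 243, overlapping with day −2. *Ccnt1*, encoding cyclin T1, had 373, 305 and 340.1 at day −2 and 463, 662 and 413 at day 7 (0.60 ± 0.23, adjusted p = 0.051).

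*Ccnt2*, encoding cyclin T2, had 684, 639 and 547 at day −2 and 459, 419 and 405 at day 7, and the difference of −0.54 ± 0.18 missed the threshold (adjusted p = 0.022). With the replicate letter as a block it was called (adjusted p = 0.0037). *Aff4*, the scaffold of the super elongation complex, had 1363, 1711 and 1215 at day −2, and its log2 fold changes lay between −0.41 ± 0.18 (day 1, adjusted p = 0.12) and 0.01 ± 0.18 (day 3, adjusted p = 0.98).

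*Brd2* did not pass the test at any day in any of its 3 entries in total reads. The upstream exon had 3977, 3014 and 3451 normalised total reads at day −2 and 4255, 5697 and 4071 at day 7 (log2 fold change 0.43 ± 0.20, adjusted p = 0.10). The terminal entry had 3876, 1954 and 4343 at day −2 and 4526, 1546 and 4482 at day 7 (0.05 ± 0.40, adjusted p = 0.93). In the terminal entry replicate B was the lowest of the 3 at every day.

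**Figure D2:**
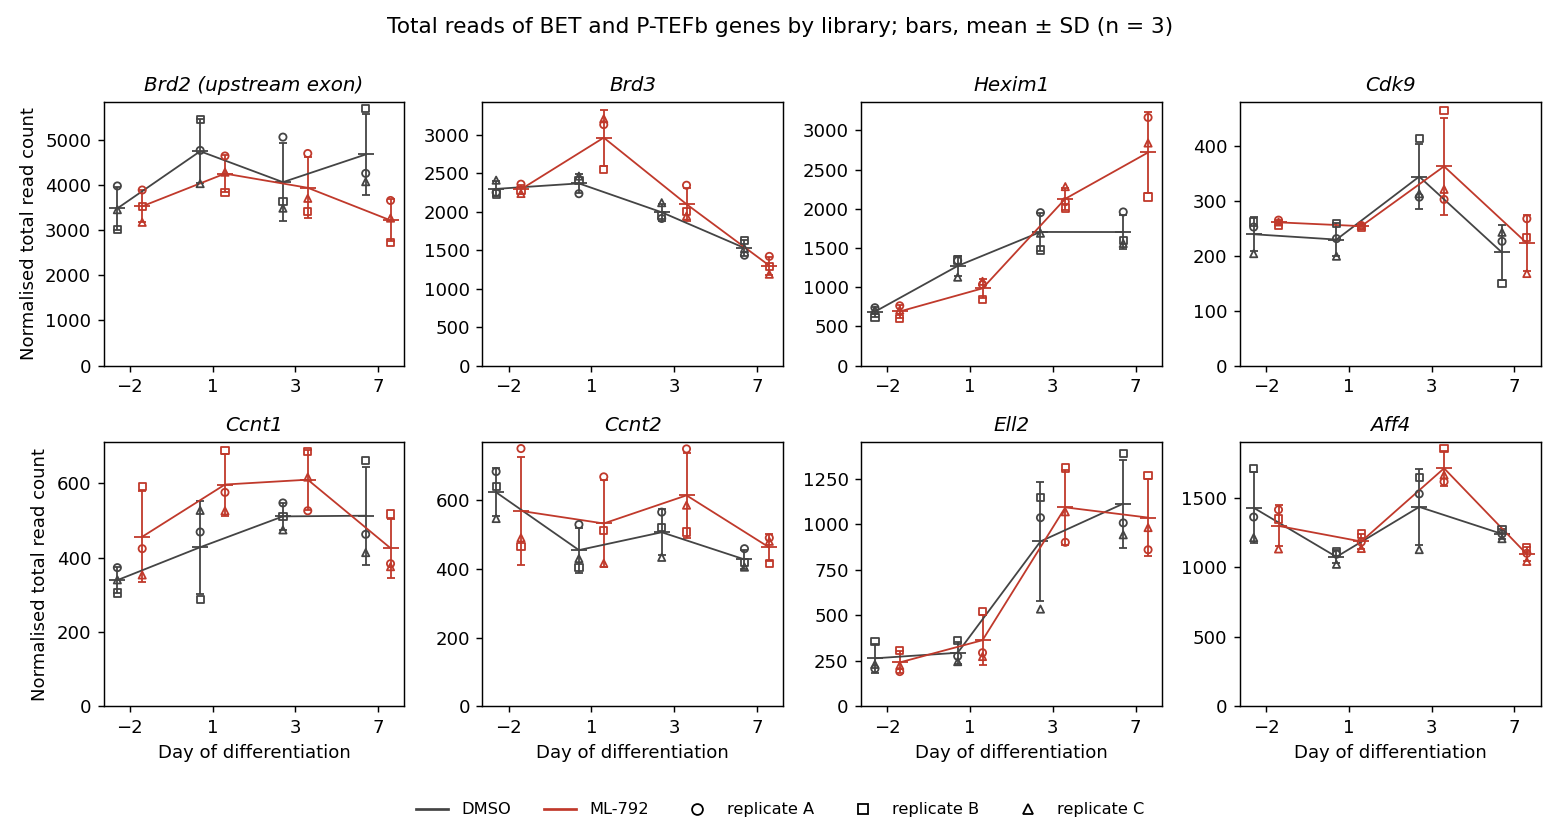
Normalised total read count (vertical axes, from 0) of the 8 members by day of differentiation in DMSO (grey) and ML-792 (red). Symbols are single libraries and bars the mean ± SD (n = 3). *Hexim1* and *Ell2* climb in both arms, *Brd3* falls by day 7, and *Hexim1* at day 7 lies at 1558 to 1960.0 in DMSO and 2151 to 3166 in ML-792.

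The same pattern of calls held in the 12 ML-792 libraries, where 3 of 8 members were called against 47.6% of all entries. *Hexim1* had 763, 600.3 and 708 normalised total reads at day −2, 1034, 846 and 1075 at day 1, 2091, 2009.9 and 2283 at day 3, and 3166, 2151 and 2839 at day 7. All libraries of days 3 and 7 exceeded all of day −2 by more than the replicate spread. Day 3 differed by 1.62 ± 0.17 on the log2 scale (adjusted p = 2.7e-06) and day 7 by 1.98 ± 0.17 (adjusted p = 4.0e-07), while day 1 missed the threshold (0.51 ± 0.16, adjusted p = 0.029).

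*Ell2* had 191, 308 and 224 at day −2 and 859, 1267 and 981 at day 7 (2.10 ± 0.27, adjusted p = 1.8e-05). *Brd3* had 2357, 2280.2 and 2236 at day −2 and 1419, 1292 and 1187 at day 7 (−0.82 ± 0.14, adjusted p = 0.00023), and this call was lost without replicate C (adjusted p = 0.0136). With the replicate block *Aff4* and *Ccnt1* were called as well, which made 5 members.

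The 250 bases before and 50 after the start site are printed for *Hexim1* and *Ell2*, the members whose total reads rose in both arms. They come from RefSeq on GRCm38.p6, chr11:103116075-103116374 and chr13:75707234-75707533, both on the plus strand. Capitals mark TATATAA in *Hexim1* and TGACGTCA in *Ell2*, the full cAMP response element. TATATAA has the letters of a TATA box but begins at position −123 from the start site, and its use was not tested.
*Hexim1* promoter: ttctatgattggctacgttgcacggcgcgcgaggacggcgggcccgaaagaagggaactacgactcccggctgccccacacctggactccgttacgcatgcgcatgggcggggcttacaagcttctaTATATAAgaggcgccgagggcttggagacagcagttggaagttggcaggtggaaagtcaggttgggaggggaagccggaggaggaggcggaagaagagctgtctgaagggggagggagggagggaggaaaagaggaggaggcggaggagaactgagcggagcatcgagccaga
*Ell2* promoter: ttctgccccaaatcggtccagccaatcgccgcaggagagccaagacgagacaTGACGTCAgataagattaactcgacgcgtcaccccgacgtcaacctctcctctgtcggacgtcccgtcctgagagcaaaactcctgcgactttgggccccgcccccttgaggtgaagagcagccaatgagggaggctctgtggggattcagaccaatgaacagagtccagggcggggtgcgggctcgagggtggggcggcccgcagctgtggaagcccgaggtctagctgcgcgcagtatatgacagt

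On either strand, TGACGTCA stood in 1.79% of the 32851 mouse promoters of this table and TATATAA in 3.24%. The 8 members had 10 promoters there, since *Brd2* has 3, and each of these motifs stood in 1 of them. Counted from the start site, the element of *Ell2* began at position −198 and the TATA sequence of *Hexim1* at −123. GGGCGG, the GC box, stood in 8 of the 10 promoters, including at least 1 promoter of each member but *Aff4*, against 35.7% of all promoters. TTGCNNAA, a palindrome of the C/EBP type found in 10.8% of all promoters, stood in 0 of the 10. These matches describe the letters of the window and no binding was measured.

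Labelled reads were next compared over the DMSO time course. They took the library sizes and factors of the total reads, so a log2 fold change contains the fall of the labelled share of the whole library. Over the 10589 entries tested the medians for days 1, 3 and 7 were −1.27, −1.70 and −1.54, and the 8 members had medians of −1.13, −1.56 and −1.26. All 8 members were tested, and they would also have been kept without the libraries of day −2. *Aff4*, *Ccnt2* and *Brd3* were called lower on at least 1 day, 3 of 7 members without *Brd2*, against 44.2% of all entries. By day these were *Aff4* at day 1, *Aff4*, *Ccnt2* and *Brd3* at day 3, and *Aff4* and *Ccnt2* at day 7. Of all entries, 19.1%, 32.6% and 28.4% were called lower on these days. *Brd2* was left out, since its labelled DMSO values also entered the comparison that led to the set.

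*Ccnt2* showed the largest log2 change of the members in labelled reads. Replicates A, B and C had 72.0, 50.1 and 22.2 normalised labelled reads at day −2, 15.6, 6.38 and 17.3 at day 1, 2.19, 2.32 and 1.16 at day 3, and 5.64, 4.17 and 9.14 at day 7. All 9 later libraries lay below those of day −2. At day 3 these were 5 reads over the 3 libraries against 169 at day −2, a ratio of 0.0388 with an exact 95% counting interval of 0.0124 to 0.0924. This interval covers counting error only, since reads without molecular identifiers are not independent molecules. Day 3 differed by −4.58 ± 0.75 on the log2 scale (adjusted p = 2.3e-06) and day 7 by −2.91 ± 0.64 (adjusted p = 0.00026, or 0.046 without replicate A). The call at day 3 held also when labelled reads were scaled by labelled reads (−3.08, adjusted p = 0.0025), and the one at day 7 did not (adjusted p = 0.11).

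*Aff4* had 79.4, 85.9 and 60.4 normalised labelled reads at day −2, 18.4, 4.55 and 19.8 at day 1, 23.0, 13.9 and 8.10 at day 3, and 4.51, 22.9 and 22.8 at day 7. The later libraries all lay below those of day −2. The log2 differences were −2.39 ± 0.54, −2.31 ± 0.55 and −2.15 ± 0.54 on days 1, 3 and 7 (adjusted p = 0.00067, 0.00063 and 0.0012), and each call was lost without 1 letter, A for days 1 and 7 and C for day 3. Scaled by labelled reads, none of these was called (adjusted p = 0.15, 0.29 and 0.37), as the change then was −1.18, −0.84 and −0.74.

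*Brd2* fell in labelled reads over the DMSO days in its upstream exon and terminal entry on the scale of total reads. The upstream exon had 184, 90.3 and 153 normalised labelled reads at day −2, 66.2, 53.7 and 51.1 at day 1, 63.5, 30.1 and 48.6 at day 3, and 66.6, 66.8 and 49.1 at day 7. The terminal entry had 376, 199 and 370.3 at day −2, 127, 72.9 and 138 at day 1, 109, 69.5 and 127 at day 3, and 147, 90.7 and 152 at day 7. The 9 later libraries of each lay below the 3 of day −2. The log2 fold changes are given without p-values, since labelled *Brd2* reads led to the set. They were −1.32 ± 0.39, −1.58 ± 0.40 and −1.23 ± 0.39 for the upstream exon and −1.49 ± 0.36, −1.63 ± 0.37 and −1.28 ± 0.36 for the terminal entry. These values are close to the medians of all entries. Scaled by labelled reads they were −0.01, −0.04 and 0.25 for the upstream exon and −0.20, −0.07 and 0.17 for the terminal entry.

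*Brd3* had 58.1, 44.7 and 38.2 normalised labelled reads at day −2 and 15.3, 6.95 and 19.7 at day 3 (−1.74 ± 0.55, adjusted p = 0.0079). That call was lost under 7 of 10 alternatives, with an adjusted p of 0.83 when scaled by labelled reads. *Ccnt1* had 40.9, 15.2 and 29.3 at day −2 and 13.1, 8.11 and 8.10 at day 3 (−1.53 ± 0.61, adjusted p = 0.034). *Cdk9* had 25.4, 30.4 and 15.1 at day −2 and 13.5, 20.9 and 20.6 at day 7, overlapping groups (−0.36 ± 0.57, adjusted p = 0.60).

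*Hexim1* was the one member with positive log2 differences in labelled reads at both day 3 and day 7 in DMSO. It had 34.4, 22.4 and 24 normalised labelled reads at day −2, 28.5, 29.1 and 18.1 at day 1, 52.5, 30.1 and 37.0 at day 3, and 62.1, 25.0 and 36.5 at day 7. The groups overlapped, and neither day 3 (0.57 ± 0.48, adjusted p = 0.30) nor day 7 (0.61 ± 0.48, adjusted p = 0.28) was called. Scaled by labelled reads, *Hexim1* was called higher at both days, by 2.09 (adjusted p = 0.00021) and 2.03 (adjusted p = 0.00032). *Ell2*, by contrast, had few labelled reads, 22.9, 14.3 and 13.3 at day −2, 12, 10.4 and 18.5 at day 3 and 7.90, 12.5 and 13.7 at day 7, with no call (−0.30 ± 0.65, adjusted p = 0.70, and −0.56 ± 0.66, adjusted p = 0.47).

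**Figure D3:**
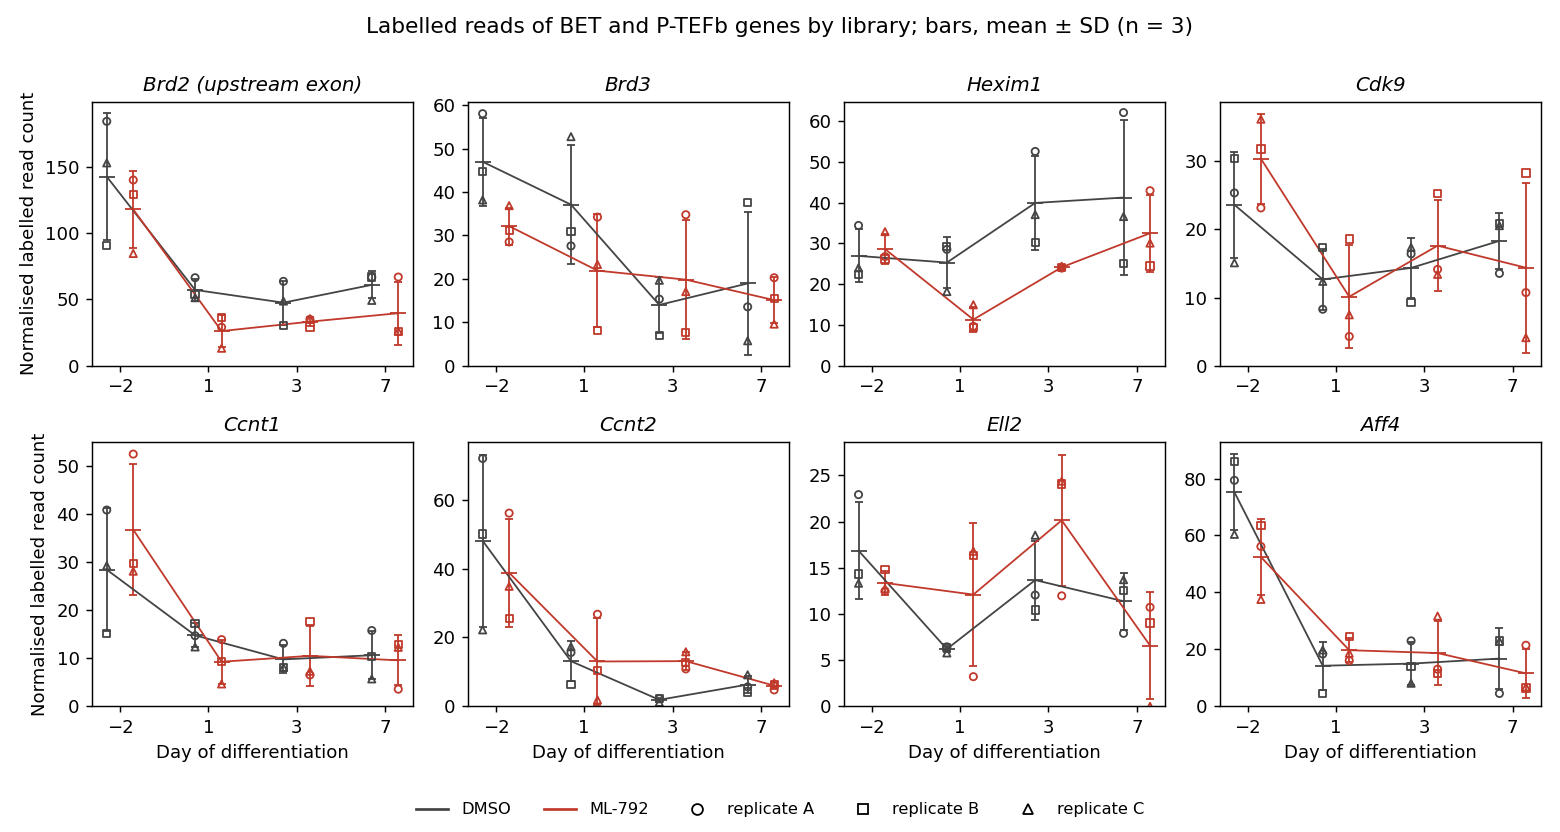
Normalised labelled read count (vertical axes, from 0) of the 8 members by day of differentiation in DMSO (grey) and ML-792 (red), with single libraries as symbols and bars as mean ± SD (n = 3). *Ccnt2* and *Aff4* fall steeply after day −2 in DMSO, to means of 1.89 and 15.0 at day 3, while *Hexim1* moves from 26.9 at day −2 to 41.2 at day 7.

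The labelled share of a member's own reads gives the same data without a library scale. In DMSO the labelled share of *Ccnt2* reads was 7.47% at day −2 and 0.366% at day 3, as means of 3 libraries, and that of *Aff4* was 5.27 and 1.02%. *Cdk9* had 9.68, 4.37 and 9.47% on days −2, 3 and 7. Over the genes with at least 100 reads the median shares on those days were 2.37%, 0.816% and 0.897%. *Cdk9* thus stood at the 95th, 96th and 99th percentile of those genes, as a description, since shares also depend on the number of T in the reads. *Ell2* went from 6.98% at day −2 to 1.05% at day 7 while its total reads rose.

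In the ML-792 libraries, labelled reads of *Aff4*, *Ccnt1* and *Ccnt2* were called lower, 3 of 7 members without *Brd2*, against 51.2% of all entries. *Ccnt1* had 52.6, 29.7 and 28.2 normalised labelled reads at day −2, 13.9, 9.31 and 4.66 at day 1 and 3.57, 12.9 and 12.3 at day 7. The log2 differences on days 1, 3 and 7 were −1.98 ± 0.57, −1.80 ± 0.57 and −1.94 ± 0.58 (adjusted p = 0.0042, 0.0071 and 0.0042). *Ccnt2* had 56.1, 25.5 and 34.9 at day −2 and 4.77, 6.43 and 6.83 at day 7 (−2.67 ± 0.62, adjusted p = 0.00026). *Aff4* had 56.1, 63.6 and 37.5 at day −2 and 21.4, 6.43 and 6.83 at day 7 (−2.15 ± 0.50, adjusted p = 0.00025). Scaled by labelled reads, these 3 were not called, and *Hexim1* (day 7, 1.76, adjusted p = 0.0010) and *Ell2* (day 3, 2.00, adjusted p = 0.00998) were called higher. The call of *Aff4* at day 3 (−1.48 ± 0.47, adjusted p = 0.0070) was lost under 7 of 10 alternatives and that of *Ccnt1* at day 3 under 5 of 10. Without replicate A, *Aff4* was the single member of the 7 still called, and without replicate B *Aff4* was not called on any day. With the replicate block *Cdk9* was called too, at day 1 (−1.77 ± 0.54, adjusted p = 0.0045).

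ML-792 was then compared with DMSO within each day in a fit of all 24 libraries, with a call at an adjusted p under 0.1. In total reads 2 of 8 members were called on any day, against 20.8% of all entries, both at day 7. *Hexim1* had 1960.0, 1594 and 1558 normalised total reads in DMSO and 3166, 2151 and 2839 in ML-792, groups that did not overlap. The log2 fold change was 0.67 ± 0.16 (adjusted p = 0.0095), or 1.60-fold, and 5.00% of all entries were called higher at day 7. The summed adipocyte markers were also higher in these ML-792 libraries, and their part in this difference was not tested. Mean counts of *Adipoq* were 108095 in DMSO and 187040 in ML-792, and those of *Fabp4* were 148433 and 257326. *Plin1* had 5918 and 7356, while *Lpl* (324889 and 326646) and *Cidec* (74057 and 74316) hardly differed.

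On the earlier days *Hexim1* was not called. It had 1339, 1347 and 1127 in DMSO and 1034, 846 and 1075 in ML-792 at day 1, the treated libraries being the lower (−0.37 ± 0.16, adjusted p = 0.27). At day 3 it had 1951, 1474 and 1688 against 2091, 2009.9 and 2283, the treated libraries being the higher (0.32 ± 0.16, adjusted p = 0.28). The interaction of day and treatment, an F-test of 3 terms, was called for *Hexim1* in total reads (adjusted p = 0.022), the only member called against 9.66% of all entries. Both *Hexim1* calls were lost without replicate A (adjusted p = 0.19 at day 7 and 0.39 for the interaction) and without replicate C (0.31 and 0.39).

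The upstream exon of *Brd2* had 4255, 5697 and 4071 normalised total reads in DMSO and 3655, 2726 and 3264 in ML-792 at day 7, again without overlap. The log2 fold change was −0.54 ± 0.18 (adjusted p = 0.082), and 4.60% of all entries were called lower. In the A-rich exon the difference was −0.65 ± 0.36 (adjusted p = 0.35) and in the terminal entry −0.10 ± 0.45 (adjusted p = 0.95). Without replicate B, the log2 fold change of the upstream exon was −0.27 (adjusted p = 0.39). The call was also lost without replicate A (adjusted p = 0.17) or C (0.30), with no filter (0.14) and in a fit of the 6 libraries of the day (0.16). These libraries are also those whose labelled reads led to the choice of the set.

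The other 6 members were not called in total reads on any day. *Brd3* had 2234, 2407 and 2462 normalised total reads in DMSO and 3131, 2546 and 3208 in ML-792 at day 1 (0.32 ± 0.13, adjusted p = 0.19) and lay below DMSO at day 7 (−0.23 ± 0.13, adjusted p = 0.36), without overlap on either day. At day 1 *Brd3* was called higher under DESeq2 (adjusted p = 0.041), with the replicate block (0.064) and without replicate B (0.048). *Cdk9* differed by 0.08 to 0.15, with an interval of −0.31 to 0.54 at day 7, and *Ccnt2* by −0.13 to 0.28, with an interval of −0.28 to 0.51 at day 7 (log2 fold changes with 95% intervals). *Ell2* differed by −0.13, 0.30, 0.27 and −0.10 on days −2, 1, 3 and 7, each with an SE of 0.29. Differences within these intervals are not excluded.

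**Figure D4:**
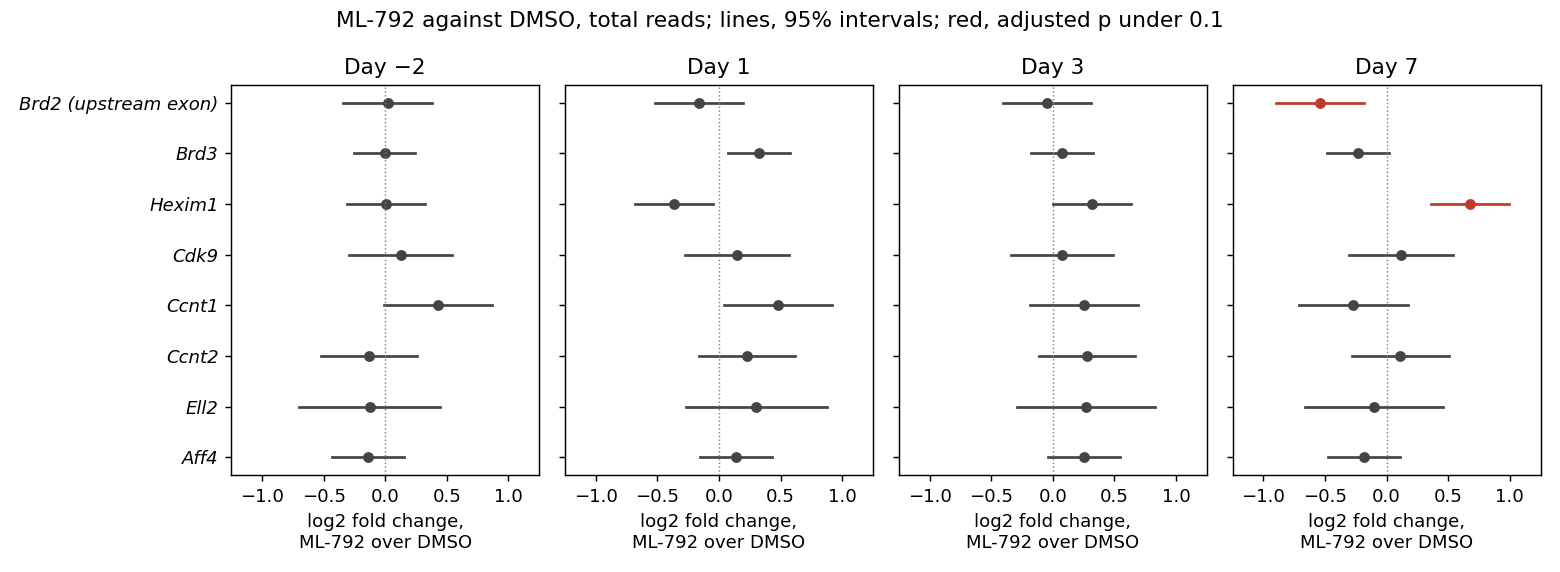
Log2 fold change of total reads, ML-792 over DMSO (horizontal axes), of the 8 members (vertical axis) at each day, with lines of 95% intervals. Red marks an adjusted p under 0.1, which *Hexim1* (0.67) and the upstream exon of *Brd2* (−0.54) reached at day 7, and every line of day −2 crosses 0.

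In labelled reads, 0 of the 7 members other than *Brd2* were called between ML-792 and DMSO, against 2.32% of all entries. *Ccnt2* at day 3 had the largest difference, with 2.19, 2.32 and 1.16 normalised labelled reads in DMSO and 10.9, 12.7 and 15.8 in ML-792, 5 reads against 33. The pooled ratio was 6.89 with an exact 95% counting interval of 2.67 to 22.6, and the log2 fold change of 2.71 ± 0.80 had an adjusted p of 0.12. It was called under DESeq2, with 1 entry per gene, with the replicate block and when scaled by labelled reads. *Hexim1* had 28.5, 29.1 and 18.1 in DMSO and 9.63, 9.31 and 14.9 in ML-792 at day 1, without overlap (−1.14 ± 0.48, adjusted p = 0.33). By the interaction test, 0 of these 7 were called, against 0.246% of all entries, which is 26 of 10589.

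The labelled *Brd2* pattern that led to the set lay in the A-rich exon, the single *Brd2* entry among those 26, and is given as a description. In DMSO this exon had 113, 87.6 and 146 normalised labelled reads at day −2, 23.0, 52.8 and 19.0 at day 1, 50.3, 47.5 and 56.7 at day 3, and 57.5, 56.3 and 82.2 at day 7. In ML-792 it had 135, 168 and 157 at day −2, 22.5, 30.2 and 23.3 at day 1, 16.3, 25.3 and 20.7 at day 3, and 11.9, 14.2 and 13.7 at day 7. From day 1 to day 7 the 3 treated libraries went down, while in DMSO replicates A and C went up and replicate B stayed near its day 1 level. The treated libraries were all below the controls at days 3 and 7. The raw counts behind day 7 were 51, 54 and 72 reads in DMSO and 10, 11 and 10 in ML-792.

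At day 7 the upstream exon had 66.6, 66.8 and 49.1 normalised labelled reads in DMSO and 66.7, 25.7 and 26.0 in ML-792, with overlap. The terminal entry had 147, 90.7 and 152 against 92.9, 37.3 and 80.6. There replicate B was the lowest library in both arms, and the overlap came from its control library alone, as A and C were lower in ML-792 without overlap. This also held at day 1 (127, 72.9 and 138 against 98.4, 51.2 and 94.2) and at day 3 (109, 69.5 and 127 against 67.4, 54.5 and 81.6). The log2 difference at day 7 was −2.29 in the A-rich exon, −0.62 in the upstream exon and −0.88 in the terminal entry. The entry that the rule picked for *Brd2* was thus not the one whose labelled reads led to the set, and the difference between entries was not tested.

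Total reads, another readout of the same libraries, gave no interaction call in the A-rich exon (adjusted p = 0.66), the upstream exon (0.53) or the terminal entry (1.0). With the replicate letter as a block the A-rich exon was called in total reads as well (adjusted p = 0.028), and so it was with no filter (0.096). Its normalised total reads at day 7 were 1363, 2673 and 1694 in DMSO and 1032, 1773 and 834 in ML-792. The labelled share of its reads at day 7 was 3.73% in DMSO and 1.2% in ML-792, means of 3 libraries, and at day −2 it was 8.28 and 9.05%.

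**Figure D5:**
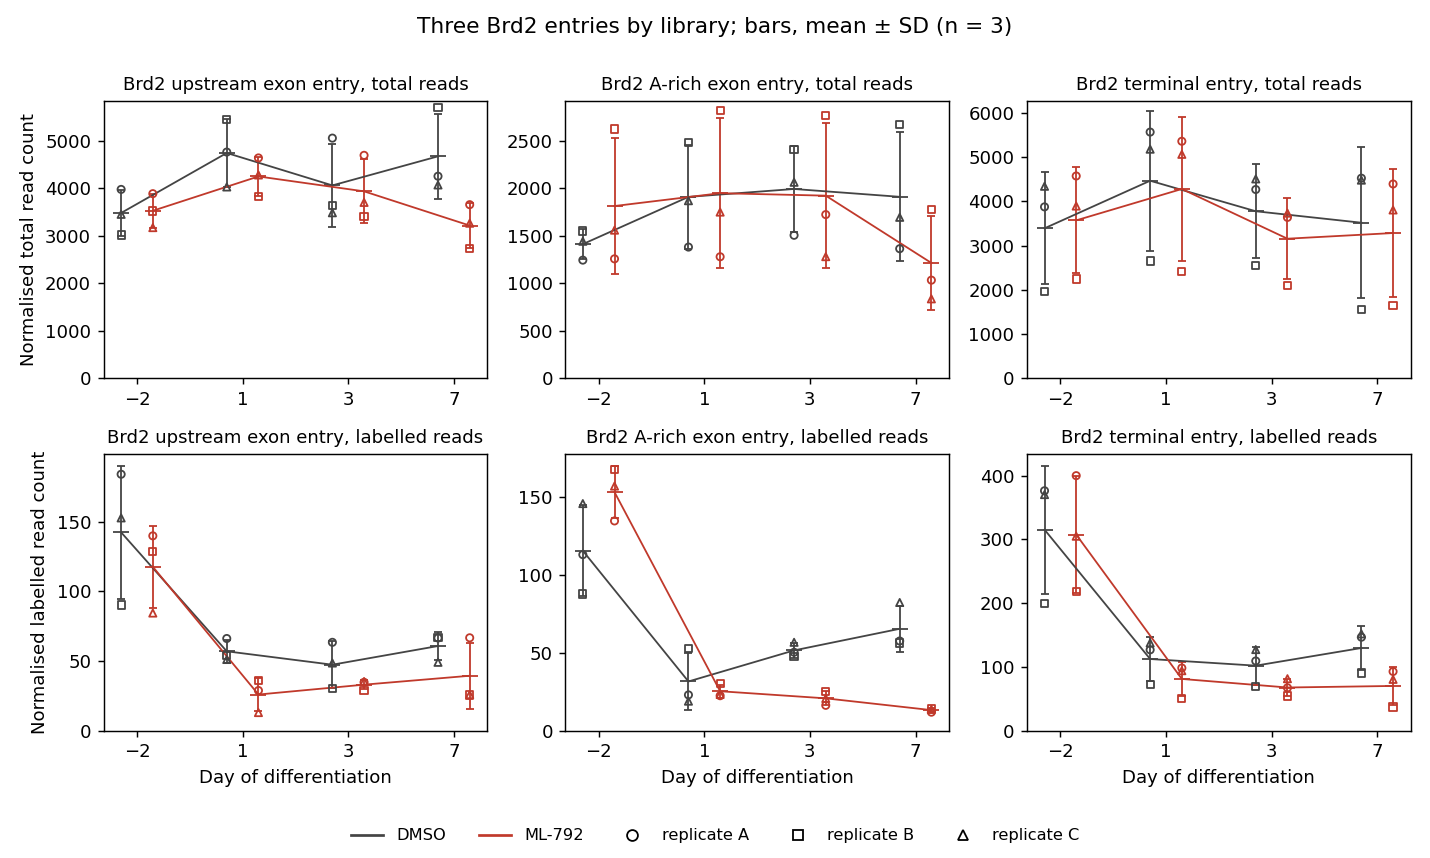
Normalised total (upper row) and labelled (lower row) read counts (vertical axes, from 0) of 3 *Brd2* entries by day in DMSO (grey) and ML-792 (red), with single libraries as symbols and bars as mean ± SD (n = 3). In labelled reads of the A-rich exon the arms part after day 1, to 65.4 in DMSO and 13.2 in ML-792 at day 7, whereas in total reads replicate B (squares) is high in the A-rich exon and low in the terminal entry.

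Genes with the pattern most like *Brd2*, by Pearson correlation of log2 normalised counts over the 24 libraries with 1 entry per gene, were taken for both readouts. In labelled reads they were *Zfp36l2* (r = 0.91), *Sfr1* (0.90), *Ehbp1l1* (0.90), *Amotl2* (0.88) and *Mat2a* (0.88), out of 6433 genes. In total reads they were *Sec61a1* (r = 0.80), *Tssc4* (0.78), *Casc3* (0.73), *Igf2* (0.72) and *Ulk1* (0.72), out of 13330. The points share libraries and the fall of the labelled share, and these are values of the upstream exon. Among the members the highest correlation in total reads was between *Hexim1* and *Ell2* (0.81).

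Other genes of elongation control were described from lists of 31 genes, of which 30 were tested in total and 22 in labelled reads, naming in each comparison the 4 called genes with the largest change. In the DMSO time course 11 of 30 were called in total reads, 6 higher and 5 lower, which is 36.7% against 42.5% of all entries. *Hexim2*, a paralogue of *Hexim1*, went from a mean of 102 to 286 normalised total reads between days −2 and 7 (log2 fold change 1.49 ± 0.23, adjusted p = 6.1e-05). *Ctr9*, of the PAF complex that travels with elongating polymerase, went from 670 to 1549 at day 3 (1.21 ± 0.15, adjusted p = 9.7e-06). *Mllt1*, which encodes the YEATS protein ENL of the super elongation complex, went from 502 to 219 at day 7 (−1.20 ± 0.19, adjusted p = 9.4e-05). *Ice1*, of the little elongation complex, went from 511 to 214 (−1.26 ± 0.33, adjusted p = 0.0058).

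In the ML-792 arm 12 of 30 list genes were called, 7 higher and 5 lower, against 47.6% of all entries. There *Hexim2* rose at day 7 (1.70 ± 0.19, adjusted p = 4.7e-06), and *Cdc73* (1.5 ± 0.17, adjusted p = 6.4e-06) and *Leo1* (1.18 ± 0.30, adjusted p = 0.0052), both of the PAF complex, rose at day 3. *Mllt3*, which encodes the YEATS protein AF9, fell at day 7 (−1.10 ± 0.18, adjusted p = 0.00015).

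In labelled reads of the DMSO time course 8 of the 22 list genes were called, all lower, 36.4% against 44.2% of all entries. The largest changes were at day 3. *Wdr61*, of the PAF complex, had 1 labelled read over 3 libraries there against 78 at day −2, a ratio of 0.0168 with an exact 95% counting interval of 0.00042 to 0.0966. *Mllt3* had 8 against 117 (0.0898, interval 0.0379 to 0.183), *Larp7*, which binds 7SK RNA, had 6 against 72 (0.109, interval 0.0389 to 0.250), and *Rtf1*, a factor associated with the PAF complex, had 10 against 115 (0.114, interval 0.0533 to 0.218). In the ML-792 arm 10 of 22 were called, all lower, against 51.2% of all entries. Whether the list genes would be kept without the libraries of day −2 was not checked. On days 1, 3 and 7 *Wdr61* had at most 2, 1 and 5 labelled reads per library in DMSO. In ML-792 it had at most 17, 2 and 1, against a minimum count of 10. It thus passed the filter through day −2, where it was high. *Larp7* on those days had at most 14, 4 and 7 in DMSO and 10, 9 and 1 in ML-792. It reached 10 at day 1 alone, where its lowest libraries had 1 and 4. It may thus have passed through day −2 as well. Both counts of list genes include *Wdr61* and *Larp7*, so the calls of these genes and both counts are a description only.

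Between ML-792 and DMSO, 5 of 30 list genes were called in total reads on any day, 1 higher and 4 lower, against 20.8% of all entries, and 0 of 22 in labelled reads. *Aff1*, encoding the alternative scaffold to AFF4 in the super elongation complex, was lower on days 1 and 3 (−0.65 ± 0.19 and −0.72 ± 0.19, adjusted p = 0.048 and 0.015). Its mean normalised total count at day 3 was 859 in DMSO and 522 in ML-792. *Aff4* over the same days differed by 0.14 ± 0.15 and 0.26 ± 0.15 (adjusted p = 0.77 and 0.37). *Nelfe*, a subunit of NELF, was lower at day 7 (−0.53 ± 0.16, adjusted p = 0.042), *Ctr9* lower at day 3 (−0.49 ± 0.16, adjusted p = 0.051) and *Mllt1* higher at day 7 (0.48 ± 0.16, adjusted p = 0.075). The interaction of day and treatment was called in total reads for *Aff1* and *Mllt1* (adjusted p = 0.039 and 0.044), 2 of 30 list genes against 9.66% of all entries.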

How the data were processed

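The 24 libraries gave both the SLAMseq and the QuantSeq counts. The authors primed the libraries with oligo-dT, mapped and filtered reads with SlamDunk to mm10, and deposited raw counts of total reads and of reads with at least 1 T to C conversion per RefSeq 3′UTR entry, with no normalisation. Both tables hold 91830 entries, and entries of a gene can overlap. Members and list genes were counted by 1 entry each, whereas the shares of all entries counted every entry tested. These were 26563 entries of 13335 genes in total reads and 10589 entries of 6466 genes in labelled reads. Of the library columns, 6 per table match no sample and were left out. Libraries were grouped by their titles, 3 per condition, and p-values measure the spread between these libraries.

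Counts were tested with edgeR 4.0.16 (quasi-likelihood, robust) in R 4.3.3. Entries were kept by filterByExpr (minimum count 10, minimum total 15, conditions as groups). TMM factors came from total reads and were applied also to labelled reads. Normalised counts are counts per effective library size times the mean effective size, and log2 correlations used a prior count of 2. P-values were adjusted over all entries tested, with 0.01 as the threshold for time courses and 0.1 for ML-792 against DMSO and the interaction. The study's methods apply DESeq2 size factors of total reads, and DESeq2 1.42.0 was an alternative. Others were no filter, 1 entry per gene, a replicate block, another set of libraries in the fit, scaling by labelled reads, subtraction of a background (percentile 1 of labelled shares, entries of 1000 reads or more), and leaving out a replicate letter. *Brd2* by its terminal entry was added after seeing the data. The code was tested on simulated counts.

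The members and lists were chosen with earlier results of these data known. Named were the 8 members by their top entry, other non-overlapping *Brd2* entries (only the 2 with the most reads are described, the rest having means of 90.6 or fewer reads), per comparison at most 4 called list genes by size of change (1 list gene is counted but not reported here), and the 5 genes most like *Brd2* per readout.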

Additional observations from a re-analysis of the deposited data

Results flagged for a closer look

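*Hexim1* in total reads is listed because the effect of ML-792 differed between the days by the interaction test (edgeR, adjusted p = 0.0215). On days −2, 1, 3 and 7 the log2 difference between ML-792 and DMSO was 0.01, −0.37, 0.32 and 0.67, each ± 0.16 (SE), with 3 of 3 treated libraries below all controls at day 1 and above them at days 3 and 7. The adjusted p ran from 0.00024 to 0.39 over the alternatives. With 3 libraries in each group, no group was large enough for a test of single outlying libraries.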

How the results depend on the processing

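Counts of members called, out of 8 (7 where *Brd2* is left out, in the labelled ML-792 comparisons), changed by over 1.5 times under some alternatives. In total reads the ML-792 time course gave 3, and 5 with the replicate block. The interaction gave 1, and 2 under DESeq2 and with the replicate block, where *Brd3* joined *Hexim1*. Between ML-792 and DMSO total reads gave 2, and 1 with no filter, in fits of the 6 libraries of a day and with *Brd2* by its terminal entry. In labelled reads the DMSO time course gave 4 with *Brd2* counted, the others being *Aff4*, *Ccnt2* and *Brd3*. Scaled by labelled reads it gave 2, *Ccnt2* lower and *Hexim1* higher. ML-792 against DMSO gave 0 in labelled reads, and 1, *Ccnt2*, under DESeq2, with 1 entry per gene, with the replicate block and when scaled by labelled reads. The other 57 of 75 counts stayed within 1.5 times, and of the single values 227 kept their call, 76 lost it and 2 turned. Leaving out 1 replicate letter gave, in total reads, 0 to 1 for the interaction and 0 to 2 for ML-792 against DMSO, with 0 without A and without C in both. In labelled reads it gave 2 to 4 for the DMSO time course, *Brd2* counted, with 2 without A or C. For the ML-792 time course it gave 1 to 3, with 1 without A. Scaled by labelled reads, the DMSO day 7 changes of *Brd2* turned to 0.25 in the upstream exon and 0.17 in the terminal entry, and the median of all entries moved from −1.54 to −0.12. The share of calls that were lower then went from 94.3% to 46.2%.

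Libraries with the same letter had correlated deviations from their condition means in total reads (mean 0.19 over 84 pairs, from −0.17 to 0.52, 68 above 0.1). Libraries of different letters had a mean of −0.094 there, which largely follows from the same-letter value, since deviations within a condition cancel out. In labelled reads the mean for the same letter was 0.071. The main fits held no block for the letter, so in total reads they leave this shared part in the spread. Calls that changed with the block are given above. Low labelled counts limit the members: raw counts were 0 to 28 for *Ell2*, and a change under these counts was often not detectable.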
